A study of Mus musculus with 4 samples.

Results

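Klf2, Klf4, Klf6, Nos3, Thbd, Edn1, Gucy1a1, Rgs5, Apold1 and Rrad, 10 of the 32286 features counted, are genes of the vessel wall that answer to blood flow or set vessel tone. The list was drawn up with these data in view, and several of its genes were selected on a low p between genotypes in endothelial or mural cells. The difference between genotypes in those cells is therefore given as a description, beside counts over all genes, and no test of a member is read there. Single cells of the distal jejunum of 4 male adult mice were counted 18.5 h after small intestinal ischemia and reperfusion (I/R), in which the blood supply is stopped and then restored. Control mice (Foxc1fl/fl;Foxc2fl/fl, n = 2) carried the floxed alleles without Cre, and EC-Foxc-DKO mice (Cdh5-CreERT2;Foxc1fl/fl;Foxc2fl/fl, n = 2) carried in addition a tamoxifen-inducible Cre driven by the promoter of Cdh5, which is active in blood and lymphatic endothelial cells. The paper's methods describe tamoxifen by oral gavage before the surgery, for adult male mice without distinction of genotype. All 4 mice had the surgery, so that no value here comes from an uninjured intestine. Each mouse is 1 library.

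After removal of barcodes with more than 10% mitochondrial UMIs, where a UMI is 1 captured RNA molecule, 5615 of 22679 barcodes remained, 348 to 2742 per mouse with median depths of 4254.5 to 19871 UMIs, and 24 of them carried a barcode that also occurred in another library. Of these cells, 171 were blood endothelial cells (BECs), 18 lymphatic endothelial cells (LECs) and 45 Myocytes/Pericytes, the mural cells that surround vessels together with other smooth muscle. Control mice gave 31 and 29 BECs and EC-Foxc-DKO mice 87 and 24, and all 10 endothelial markers were found in each mouse's BECs, as were all 9 smooth muscle markers in each mouse's Myocytes/Pericytes and all 7 lymphatic markers in the LECs of the 3 mice that had any. EC-Foxc-DKO replicate 2 gave only 2 Myocytes/Pericytes and no LEC, and EC-Foxc-DKO replicate 1 only 3 LECs. Foxc1, a deleted gene, had 1 and 5 UMIs in Control BECs and 1 and 0 in EC-Foxc-DKO BECs, and Foxc2 had none in the BECs, LECs or Myocytes/Pericytes of any mouse, so the deletion could not be checked at this depth. Levels below are counts per 1000000 UMIs of all genes of 1 mouse and cell type (CPM), and log2 fold changes are EC-Foxc-DKO minus Control on edgeR's TMM scale, each with its SE.

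Endothelial cells sense the drag of flowing blood. Steady flow activates the kinases MEK5 and ERK5 and MEF2 factors, which induce Klf2 and Klf4, zinc finger transcription factors that bind CACCC elements and keep the endothelium quiescent. In cultured endothelium these factors raise Nos3, the endothelial nitric oxide synthase, and Thbd, thrombomodulin, which turns thrombin toward activation of protein C, and they lower Edn1, the constrictor peptide endothelin-1. Nitric oxide reaches the neighboring mural cells and binds soluble guanylate cyclase, of which Gucy1a1 encodes the alpha subunit. Rgs5, a GTPase-activating protein of G protein signaling, is a pericyte gene. Apold1 is an endothelial immediate early gene, Klf6 a Klf factor induced by injury, and Rrad a small GTPase of the RGK family that inhibits calcium channels.

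Promoter sequences, from 250 bases before to 50 bases after a start site, were found in RefSeq (GRCm38.p6) for 7 of the 10 genes. Those of Klf2 (chr8:72318812-72319111, plus strand), Edn1 (chr13:42301226-42301525, plus strand), Gucy1a1 (chr3:82145024-82145323, minus strand) and Apold1 (chr6:134981751-134982050, plus strand) are shown, Klf2 as the factor that flow induces, Edn1 and Gucy1a1 as genes that lay on opposite sides of the arterial and venous split of BECs below, and Apold1 as the endothelial immediate early gene. They run 5′ to 3′ on the strand of the gene, and capitals mark CACCC or its reverse complement GGGTG.
Klf2: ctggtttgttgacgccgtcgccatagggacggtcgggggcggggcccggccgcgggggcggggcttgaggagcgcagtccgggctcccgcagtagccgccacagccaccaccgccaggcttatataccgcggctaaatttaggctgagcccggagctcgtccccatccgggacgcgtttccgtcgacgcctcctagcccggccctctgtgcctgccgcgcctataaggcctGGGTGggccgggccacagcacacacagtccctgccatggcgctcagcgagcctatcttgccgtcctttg
Edn1: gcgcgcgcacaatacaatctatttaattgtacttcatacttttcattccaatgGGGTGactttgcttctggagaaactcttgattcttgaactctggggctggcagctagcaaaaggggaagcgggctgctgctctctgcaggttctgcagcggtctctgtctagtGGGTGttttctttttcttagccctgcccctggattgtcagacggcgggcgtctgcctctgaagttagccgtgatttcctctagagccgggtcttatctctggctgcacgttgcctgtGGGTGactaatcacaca
Gucy1a1: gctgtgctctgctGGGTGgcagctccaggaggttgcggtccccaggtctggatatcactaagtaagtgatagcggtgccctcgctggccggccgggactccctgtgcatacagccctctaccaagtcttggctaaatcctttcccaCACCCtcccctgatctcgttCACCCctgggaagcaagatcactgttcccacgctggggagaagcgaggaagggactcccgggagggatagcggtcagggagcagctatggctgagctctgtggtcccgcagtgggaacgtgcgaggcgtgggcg
Apold1: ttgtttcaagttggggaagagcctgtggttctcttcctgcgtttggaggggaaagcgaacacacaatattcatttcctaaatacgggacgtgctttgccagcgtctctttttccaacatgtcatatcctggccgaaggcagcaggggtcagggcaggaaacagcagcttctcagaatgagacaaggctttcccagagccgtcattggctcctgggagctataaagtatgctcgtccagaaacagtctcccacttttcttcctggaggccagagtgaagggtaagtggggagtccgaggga

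The CACCC core was searched on both strands and occurred once in the Klf2 window, 19 bases before the start site, and 3 times in each of the Edn1 and Gucy1a1 windows shown. It was absent from the Apold1 window and from those of Klf4, Klf6 and Rgs5. A window at another start site of Gucy1a1 (chr3:82145601-82145900, minus strand), not shown, also lacked it. Of all 32851 promoter windows of this length, 57.5% held it, so its presence does not set these genes apart. A MEF2-type sequence (CTA and TAG with any 4 bases between, on either strand) lay 118 bases before the Klf2 start and in 3.69% of all windows. The Klf2, Klf4 and Klf6 windows held 2, 4 and 1 matches to the SP1-type box GGGCGG (35.7% of all windows), and their GC content was 69.3%, 74.3% and 63.0% against a median of 52.7% over all windows. Apold1 alone of the 7 genes had TATAAA, 32 bases before its start, which 13.6% of windows held. The forkhead-type sequence GTAAACA, found in 3.65% of windows, was in none of the members' windows. These are letter matches only.

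Across the 20 named cell types, 7 of the 10 genes had their highest mean level in BECs, LECs or Myocytes/Pericytes. Means are taken over mice with at least 5 cells of a type. For LECs these were the Control mice only, whereas the means of BECs and Myocytes/Pericytes hold mice of both genotypes. Because the cell types were found from genes that include these, the order is a description. Of the transcription factors, Klf2 (chr8:72319033-72321656) was highest in Macrophage 1 at 1057 ± 344 CPM (SD, n = 3), followed by BECs at 1014 ± 199 CPM (SD, n = 4), Myocytes/Pericytes at 955 ± 420.5 CPM (SD, n = 3) and Follicular B cells at 598 ± 180.4 CPM (SD, n = 4), and no neighbors in this order differed beyond their spread. Without the richest cell of each of the 3 mice, the mean of Klf2 in Myocytes/Pericytes was 163 CPM. Macrophage 1 is the study's own name for cells led by S100a8 and S100a9. Follicular B cells, being many, held 41.3% of all Klf2 UMIs and BECs 14.4%. Klf2 is also known for keeping lymphocytes at rest.

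Klf4 and Klf6 had their highest mean in an epithelial type. Klf4 (chr4:55527143-55532466), which in the gut takes part in the differentiation of epithelial cells, reached 1350.4 ± 151 CPM (SD, n = 2) in Top Enterocytes, more than in any other type beyond the spread. BECs, at 544 ± 219 CPM (SD, n = 4), came after 4 epithelial types and before Macrophage 2, the last step again beyond the spread. Klf6 (chr13:5861482-5870394) was likewise highest in Top Enterocytes at 1016 ± 13.6 CPM (SD, n = 2), and Macrophage 2 came next at 796 ± 443 CPM (SD, n = 4), a step within the spread. Macrophage 2 was the highest type for Klf6 when cells were clustered without the members, and when Control replicate 1 or EC-Foxc-DKO replicate 1 was left out. In BECs Klf6 was at 242 ± 57.7 CPM (SD, n = 4).

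The effector genes had their highest levels in BECs. Nos3 (chr5:24364810-24384474) was found at 149.7 ± 5.75 CPM (SD, n = 4) in BECs, which held 139 of the 157 Nos3 UMIs of all kept cells (88.5%). Relative to its mean, it varied least of the 10 genes between the BECs of the 4 mice, its SD being 3.84% of the mean against 19.6% to 121% for the others. The Control mice had 21 and 34 Nos3 UMIs there and the EC-Foxc-DKO mice 66 and 18. Counting error at such numbers is wider than this SD, so a steady level is not read from it. Thbd (chr2:148404466-148408188) was at 358 ± 72.5 CPM (SD, n = 4) in BECs, then at 186 ± 16.3 CPM (SD, n = 2) in Telocytes/Trophocytes, the stromal cells that line the crypts and villi, and at 179 ± 5.87 CPM (SD, n = 2) in LECs. Edn1 (chr13:42301476-42307990) was at 269 ± 72.6 CPM (SD, n = 4) in BECs and at 45.3 ± 44.9 CPM (SD, n = 3) in Myocytes/Pericytes. In the 2 of these mice with mural Edn1 UMIs, the mural mean without the richest cell of each was 10.9 CPM. Although the level of Edn1 per UMI was highest in BECs, these held only 16.6% of all Edn1 UMIs, fewer than the deep and numerous Middle Enterocytes (25.3%), Bottom enterocytes (23.2%) and Enteroendocrine cell 2 (18.4%). The last is the study's own name, and its markers, such as Rbp2, S100a6 and Lgals3, include no hormone gene. Enteroendocrine cell 1, whose markers include Chga and Chgb, held 0.179% of Edn1 UMIs. For Nos3, Thbd and Edn1 the step from BECs to the next type was larger than the spread.

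The mural genes had their own order. Rgs5 (chr1:169655501-169695813) was at 3600.4 ± 1517 CPM (SD, n = 3) in Myocytes/Pericytes, 987 ± 564 CPM (SD, n = 2) in Telocytes/Trophocytes and 182 ± 196 CPM (SD, n = 4) in BECs, each of the first 2 steps lying beyond the spread. Gucy1a1 (chr3:82092427-82145789) was at 938 ± 485 CPM (SD, n = 3) in Myocytes/Pericytes and at 694 ± 57.3 CPM (SD, n = 2, Control only) in LECs, which did not differ beyond their spread. It was at 149 ± 108 CPM (SD, n = 4) in BECs. Rrad (chr8:104628070-104631327) was highest in Myocytes/Pericytes at 242 ± 181 CPM (SD, n = 3) and had 30.4 ± 22.2 CPM (SD, n = 4) in Follicular B cells, which held 205 of its 503 UMIs. Of the 48 mural Rrad UMIs, 36 were in 2 cells, and without the richest cell of each mouse the mural mean was 34.1 CPM, against 59.5 ± 70.7 CPM (SD, n = 3) in CD4+ T cells, the next type. Apold1 (chr6:134981718-134986836) was endothelial, at 294 ± 168 CPM (SD, n = 2, Control only) in LECs and 182 ± 156 CPM (SD, n = 4) in BECs, neighbors that did not differ beyond their spread. The 3 LECs of EC-Foxc-DKO replicate 1, left out of this mean, held 3 Apold1 UMIs, all in 1 cell.

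**Figure D1:**
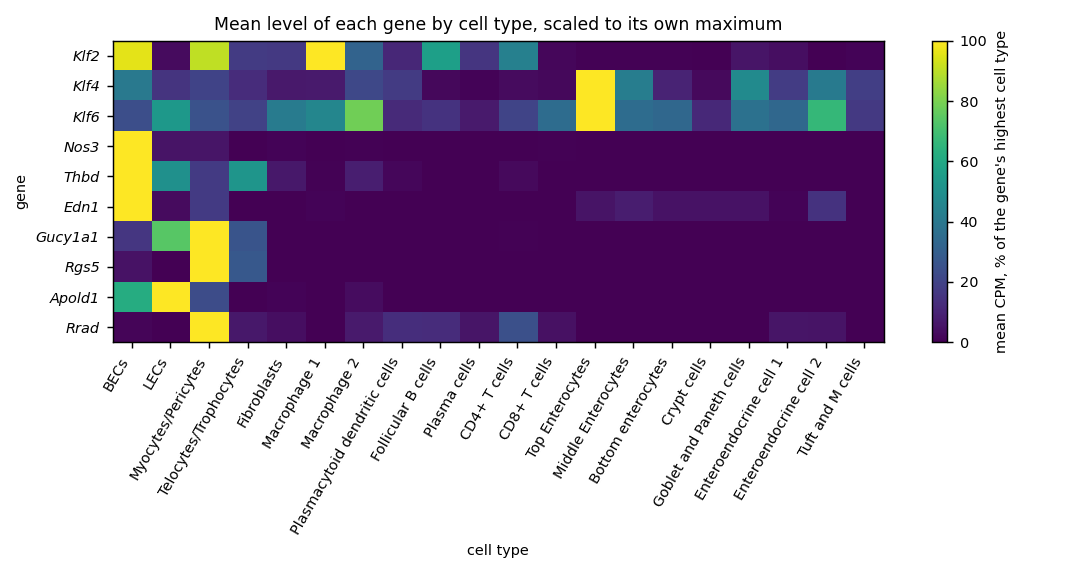
Mean CPM of each of the 10 genes (rows) in the 20 named cell types (columns), over mice with at least 5 cells of the type (for LECs, Control mice only), with each row scaled to its own highest type (color, 0 to 100%). Nos3, Thbd and Edn1 peaked in BECs, Apold1 in LECs, and Gucy1a1, Rgs5 and Rrad in Myocytes/Pericytes, whereas Klf4 and Klf6 peaked in Top Enterocytes and Klf2 in Macrophage 1.

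The share of single cells with at least 1 UMI gave a similar picture. In BECs, Klf2 was seen in 140 of 171 cells (81.9%, exact binomial 95% interval 75.3 to 87.3), Thbd in 67.8%, Klf4 in 63.2%, Klf6 in 53.8%, Edn1 in 46.8%, Nos3 in 43.3% and Apold1 in 33.9%. Gucy1a1 was seen in 22 of 171 BECs, Rgs5 in 12 of 171 and Rrad in 4 of 171. In Follicular B cells, which should lack the vessel genes, the shares were 0.0726% for Nos3, 0.218% for Edn1, 0.654% for Thbd, 0.363% for Apold1, 0.145% for Gucy1a1 and 0.363% for Rgs5. Follicular B cells had a median depth of 3248 UMIs and BECs of 4254. With every cell thinned to 1000 UMIs, which left out 13 BECs, the BEC shares were 53.7% for Klf2, 32.3% for Thbd, 14.4% for Nos3 and 12.8% for Apold1. Rrad was in 2.34% of BECs and 11.1% of Follicular B cells, and had no UMI in LECs, Bottom enterocytes or Goblet and Paneth cells. The intervals cover counting error only. A BEC most often had 3 of the 10 genes (36 cells), 3 BECs had none, and no BEC had more than 9.

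The genes most like each member over the 20 cell types, by Pearson correlation of log2(mean CPM + 10) among 12544 genes, were as follows. Nos3 was closest to Adgrl4 (r = 0.999), Ccm2l (0.997) and Stc1 (0.997). Apold1 was closest to Dysf (r = 0.988), Cav2 (r = 0.977) and Npr3 (r = 0.977). Thbd was closest to Ptprm (r = 0.965), Zbtb16 (r = 0.958) and Tmem204 (r = 0.952), and Edn1 to Mecom (r = 0.944), Stom (r = 0.866) and Adcy4 (r = 0.860). Gucy1a1 went with Lrrc32 (r = 0.988), Msrb3 (r = 0.986) and Meis2 (r = 0.985), and Rgs5 with Gm13889 (r = 0.981), Foxf1 (r = 0.980) and Dkk2 (r = 0.972). Rrad had no gene above 0.812, the value of Inpp4b, followed by Pcp4 (0.808) and Rbm24 (0.80). The transcription factors were further from their closest genes than the other members except Rrad. These closest genes were Irak3 (r = 0.904), Msn (r = 0.860) and Trps1 (r = 0.844) for Klf2. For Klf4 they were Plxnb2 (r = 0.850), Tcf7l2 (r = 0.848) and Parp12 (r = 0.845), and for Klf6 Ell (r = 0.848), Rac1 (r = 0.804) and Dusp6 (r = 0.788). Among the members themselves the highest values were 0.912 for Nos3 and Apold1 and 0.863 for Thbd and Gucy1a1, and the lowest was -0.21 for Klf2 and Klf4. The means used here took in every mouse with any cell of a type, unlike the levels above. They therefore include the 3 LECs of EC-Foxc-DKO replicate 1 and the 2 Myocytes/Pericytes of EC-Foxc-DKO replicate 2. The points share libraries and depth, and no test was made.

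BECs were not uniform in these genes. When BECs were divided by their UMIs of 8 arterial markers (such as Sox17, Sema3g and Gja4) and 6 venous markers (such as Nr2f2, Vwf and Ackr1), 112 cells had more arterial and 40 more venous UMIs. In the order Control replicates 1 and 2 and EC-Foxc-DKO replicates 1 and 2, Edn1 was at 254, 460.2, 505 and 305 CPM in the arterial-leaning cells and at 99.6, 34.2, 117 and 0 CPM in the venous-leaning cells. The constrictor gene was thus higher on the arterial side in all 4 mice. Of all Edn1 UMIs in BECs, 16 of 35 in Control replicate 1 and 21 of 63 in Control replicate 2 were in 1 arterial-leaning cell each. Gucy1a1 had the opposite pattern, with 9.06, 15.3, 7.95 and 0 CPM in arterial-leaning and 432, 752, 394 and 176 CPM in venous-leaning cells, and over all mice it was at 8.81 against 473 CPM. In the venous-leaning cells all 13 Gucy1a1 UMIs of Control replicate 1 and 61 of 66 of Control replicate 2 were in 1 cell each, and without the richest cell of each mouse the 4 values were 0, 90.5, 287 and 124 CPM. The pattern of Control replicate 1 thus rests on 1 cell. Klf4 was higher in the arterial-leaning cells of each mouse, at 535, 483, 537 and 1205 CPM against 166, 251, 373 and 251 CPM. Klf2 was higher there in 3 of 4 mice and lower in EC-Foxc-DKO replicate 1, where it was at 1085 against 1229 CPM. Nos3 hardly separated, at 153 against 145 CPM over all mice, and Thbd was at 373 against 304 CPM. These genes took part in the clustering and the cells of 1 mouse are not replicates. With 4 mice an exact test over pairs cannot go below 0.125, and none was made.

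**Figure D2:**
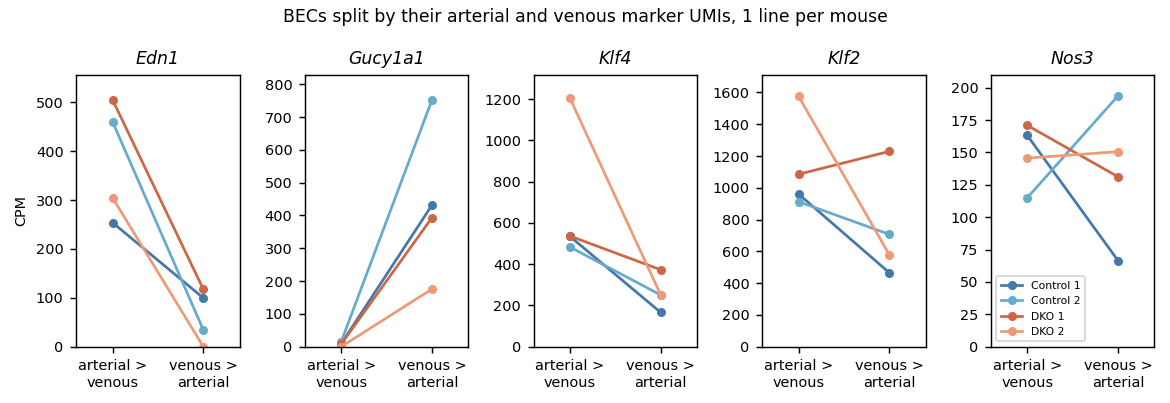
CPM of member genes in BECs with more arterial than venous marker UMIs (left of each panel) and with more venous than arterial UMIs (right), 1 line per mouse (DKO, EC-Foxc-DKO). Edn1 and Klf4 lines fall to the right in all 4 mice, whereas Gucy1a1 lines climb to between 176 and 752 CPM, in the Control mice mainly through 1 cell each.

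Of the 22 BECs with Gucy1a1, 16 also had Ackr1, the chemokine receptor of venules, a gene singled out after its values were seen. Of 19 BECs with an Ackr1 UMI, 16 had Gucy1a1 (84.2%, exact binomial 95% interval 60.4 to 96.6), against 6 of 152 BECs without one (3.95%, 1.46 to 8.39). The first group was deeper, its median depth being 7789 UMIs against 3888.5. In the order of mice given above, Gucy1a1 was in 1 of 1, 2 of 3, 11 of 12 and 2 of 3 Ackr1 cells. Among the others it was in 1 of 30, 1 of 26, 3 of 75 and 1 of 21. Most Ackr1 cells thus came from EC-Foxc-DKO replicate 1. The intervals pool cells of all mice, which are not replicates, and cover counting error only. Edn1 went the other way, being seen in 4 of 19 Ackr1 cells and in 76 of 152 others. Of the 22 BECs with Gucy1a1, 17 leaned venous, and 2 carried at least 5 mural markers. Ackr1 is itself 1 of the 6 venous markers, so the venous lean is not separate from it.

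A second axis within BECs was the level of immediate early and dissociation genes, a list of 22 genes that includes Fos, Jun, Egr1 and heat shock genes and that is induced within minutes by stress, tissue digestion included. Each mouse's BECs were divided at their median summed level of this list. In the order of mice given above, Klf2 was at 964, 1016, 1191 and 2323 CPM in the cells above the median and at 625, 627, 1001 and 534 CPM in the others. Klf4 was at 564, 590.5, 548 and 1635 CPM against 215, 113, 363 and 365 CPM. Apold1 was at 61.5, 157, 194 and 774 CPM against 58.6, 20.6, 108 and 169 CPM. All 3 were higher in the immediate early-rich cells of each mouse. Thbd was lower there in each mouse, at 103, 236, 310.4 and 387 CPM against 664, 380.2, 542 and 477 CPM, and so was Gucy1a1, at 10.3, 55.1, 47.5 and 0 CPM against 254, 627, 299.5 and 98.3 CPM. The 2 Control cells that held 13 and 61 Gucy1a1 UMIs both fell among the others, and these decide the Control values. This split was added after the data were seen.

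Between genotypes, the transcription factors of BECs lay higher in both EC-Foxc-DKO mice for Klf2 and Klf4 but not for Klf6. Klf2 was at 847 and 847 CPM (Control) against 1121 and 1240.4 CPM (EC-Foxc-DKO), without overlap, a log2 fold change of 0.46 ± 0.25. Klf4 was at 444 and 383 CPM (Control) against 481 and 867 CPM (EC-Foxc-DKO), the difference being carried mainly by replicate 2, with a log2 fold change of 0.66 ± 0.35. Klf6 was at 188 and 263 CPM (Control) against 204 and 314 CPM (EC-Foxc-DKO) and overlapped (0.13 ± 0.36).

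Of the effectors, Thbd was at 296 and 299 CPM (Control) against 395 and 442 CPM (EC-Foxc-DKO), which did not overlap, with a log2 fold change of 0.47 ± 0.31. Nos3 was at 141 and 152 CPM (Control) against 153 and 153 CPM (EC-Foxc-DKO). The groups did not overlap, yet all 4 values lay close together, and the log2 fold change was 0.05 ± 0.33. Edn1 was at 235 and 281 CPM (Control) against 365 and 195 CPM (EC-Foxc-DKO), with the highest and the lowest value both in the EC-Foxc-DKO group (0.15 ± 0.38).

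Apold1, the endothelial immediate early gene, had a larger difference than the Klf genes. It was at 60.5 and 98.1 CPM (Control) against 163 and 408 CPM (EC-Foxc-DKO), with a log2 fold change of 1.69 ± 0.50, and was spread over 7, 6, 29 and 16 cells of these mice. The summed level of the immediate early genes was at 3764 and 7605 CPM (Control) against 6670.2 and 15438 CPM (EC-Foxc-DKO). It overlapped between groups, Control replicate 2 lying above EC-Foxc-DKO replicate 1, unlike Apold1. The 19 of 22 genes that could be tested all had a log2 fold change above 0 (median 0.85, against 0.0017 over all genes tested), none of them passing the test. T cell markers did not overlap, at 13.4 and 4.46 CPM (Control) against 244 and 1639.8 CPM (EC-Foxc-DKO). Most of this was Ccl5, with 2 and 1 of 7 markers seen against 6 and 5. Cd4 was at 0 in every mouse, and Cd3d, Cd3e and Cd3g were at 0 in both Control mice. The part of immediate early genes and of T cell signal in the Apold1, Klf2 and Klf4 values was not tested. Gucy1a1 was at 94.1 and 303 CPM (Control) against 139 and 59.5 CPM (EC-Foxc-DKO) in BECs and overlapped (-0.91 ± 0.55), and 13 of 14 and 61 of 68 UMIs of the Control mice came from 1 cell each.

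Each of the 171 BECs was left out in turn to see whether 1 cell decided an order. Leaving out cells keeps the same 2 mice per group, so it cannot support a difference between genotypes. No single cell made the groups overlap for Klf2, Thbd or Apold1, and 1 Control cell did for Klf4, whereas any of 48 cells did so for Nos3. With the cell richest in the gene left out of each mouse, Klf2 was at 682 and 673 CPM (Control) against 1055 and 999.7 CPM (EC-Foxc-DKO) and Klf4 at 352 and 259 CPM (Control) against 454 and 714 CPM (EC-Foxc-DKO). Thbd was then at 250.3 and 287 CPM (Control) against 377 and 399.8 CPM (EC-Foxc-DKO) and Apold1 at 49.4 and 69.7 CPM (Control) against 126 and 336 CPM (EC-Foxc-DKO). Nos3 was at 139 CPM in EC-Foxc-DKO replicate 2 without its richest cell, below both Control mice. Of the 9 members that passed the count filter in BECs (all but Rrad), 6 were higher in both EC-Foxc-DKO mice, namely Klf2, Klf4, Nos3, Thbd, Rgs5 and Apold1, and none was lower in both. Of all 3487 genes tested, 541 were higher in both (15.5%) and 508 lower in both (14.6%), and since these contrasts helped to choose the genes, nothing is read from that count. None of the 3487 genes passed an adjusted p of 0.05 in edgeR's quasi-likelihood test (0%), 97 had an unadjusted p under 0.05, and DESeq2 called 2 genes.

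**Figure D3:**
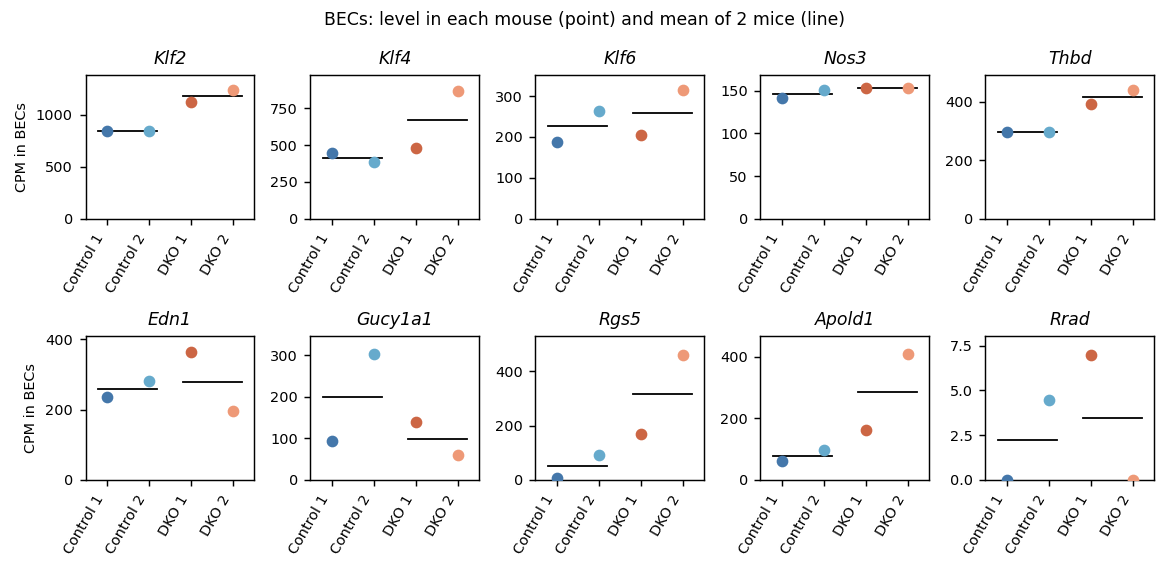
CPM of each member gene in the BECs of each mouse (points; DKO, EC-Foxc-DKO) with the mean of each group of 2 mice (line). Apold1 and Rgs5 show the widest steps between groups, with 408 and 459 CPM in EC-Foxc-DKO replicate 2. Nos3 stays between 141 and 153 CPM, on 18 to 66 UMIs per mouse.

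Rgs5 had the largest difference in BECs and rested on 2 cells. It was at 6.72 and 93.6 CPM (Control) against 169 and 459 CPM (EC-Foxc-DKO), with a log2 fold change of 2.38 ± 0.73. Of its 149 UMIs, all in 12 of 171 BECs, 62 of the 73 in EC-Foxc-DKO replicate 1 and 46 of the 54 in EC-Foxc-DKO replicate 2 were in 1 cell each. These cells carried UMIs of 8 and 9 distinct mural markers beside 9 endothelial markers each, and no other BEC had 5 or more mural markers. Without both cells, an alternative chosen after seeing the data, Rgs5 was at 6.72 and 93.6 CPM (Control) against 26.4 and 72.7 CPM (EC-Foxc-DKO), and the log2 fold change was -0.47 ± 0.86. The pericyte markers summed over BECs were at 215 and 156 CPM (Control) against 241 and 501 CPM (EC-Foxc-DKO), with 1 of 8 markers seen in each Control mouse (Mcam, which endothelium also expresses) and 6 of 8 in each EC-Foxc-DKO mouse. Without the same cells the log2 fold change of Apold1 was 1.75 ± 0.51 and that of Klf2 0.44 ± 0.25. Nos3 then overlapped, at 141 and 152 CPM (Control) against 154 and 145 CPM (EC-Foxc-DKO), and Gucy1a1 in EC-Foxc-DKO replicate 2 went from 7 to 4 UMIs, or to 36.3 CPM.

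**Figure D4:**
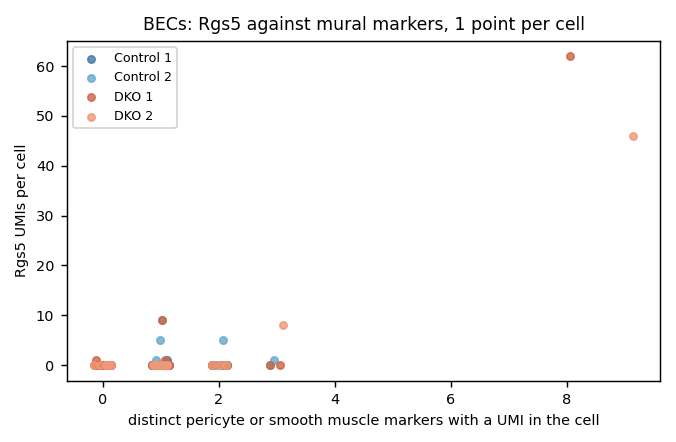
Rgs5 UMIs of each BEC (vertical axis) against the number of distinct pericyte or smooth muscle markers with a UMI in that cell (horizontal axis, points jittered sideways), colored by mouse (DKO, EC-Foxc-DKO). The 2 cells with 8 and 9 mural markers have 62 and 46 Rgs5 UMIs, and all other BECs lie at the lower left.

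LECs gave too few cells for a comparison of groups, since of the EC-Foxc-DKO mice only replicate 1 had any, 3 in number. In a fit that took this 1 mouse to vary like the Control mice, edgeR called 18 of 803 genes (2.24%) at an adjusted p of 0.05, but 0 with DESeq2's size factors or without the count filter, and DESeq2 called 1. Nothing is read from these calls. Thbd was at 184 and 175 CPM in the Control mice and 778 CPM in the EC-Foxc-DKO mouse (log2 fold change 1.96 ± 0.67), but all 28 Thbd UMIs of that mouse came from 1 cell with 10 of 10 endothelial markers, which also held all of its Nos3, Klf4 and Klf2. Gucy1a1 was at 734 and 653 CPM against 195 CPM (-1.98 ± 0.74). Apold1 was seen in all 5 and in 6 of 10 LECs of the Control mice and in 1 of the 3 others.

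In Myocytes/Pericytes, Gucy1a1, the receptor of nitric oxide, lay lower in the EC-Foxc-DKO mice, at 1091 and 1328 CPM (Control) against 394 and 106 CPM (EC-Foxc-DKO), a log2 fold change of -1.94 ± 0.54. It was seen in 12 of 12, 5 of 6, 19 of 25 and 1 of 2 cells, and 28 of the 67 UMIs of Control replicate 2 were in 1 cell. The 106 CPM of EC-Foxc-DKO replicate 2 was 1 UMI, in a cell with 6 endothelial markers. Gucy1b1, the other subunit of the cyclase, was at 733 and 733 CPM (Control) against 333 and 739 CPM (EC-Foxc-DKO) and overlapped. Rgs5 was at 5352 and 2715 CPM (Control) against 2734 and 1266 CPM (EC-Foxc-DKO) (-1.02 ± 0.56), with Control replicate 2 just below EC-Foxc-DKO replicate 1, and was highest in the few cells that leaned to pericytes, at 10275.7 CPM over 6 cells against 2766 CPM over the 39 that leaned to smooth muscle.

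Klf2 and Rrad also lay lower, but on single cells. In EC-Foxc-DKO replicate 2 only 2 UMIs of Klf2 and 1 of Rrad were seen. Klf2 was at 1226 and 1169 CPM (Control) against 471 and 211 CPM (EC-Foxc-DKO) (-1.63 ± 0.51), and 69 of 82, 59 of 59 and 49 of 92 UMIs of the first 3 mice were in 1 cell each. Rrad was at 314 and 377 CPM (Control) against 35.8 and 106 CPM (EC-Foxc-DKO), the largest difference of the 10 genes (-3.08 ± 0.57), and 19 of 21 and 17 of 19 UMIs of the Control mice were in the same 2 cells. In those cells the immediate early genes stood at 37925 and 51959 CPM, against 7110 and 2500.2 CPM in the other mural cells of the same mice. The first had 9 endothelial markers and the second 1. Klf4 was at 643 and 39.6 CPM (Control) against 128 and 739 CPM (EC-Foxc-DKO), and the 43 UMIs of Control replicate 1 again came from that 1 cell. Klf6, at 194 and 317 CPM (Control) against 256 and 317 CPM (EC-Foxc-DKO), overlapped between groups.

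At least 5 endothelial markers were present in 1 and 0 Control mural cells and in 2 and 1 EC-Foxc-DKO mural cells. Without these, an alternative chosen after seeing the data, Klf2 was at 249.8 and 1169 CPM (Control) against 54 and 0 CPM (EC-Foxc-DKO), Rrad at 38.4 and 377 CPM against 12 and 0 CPM, and Gucy1a1 at 1153 and 1328 CPM against 402 and 0 CPM, the last mouse having 1 cell left. The summed endothelial markers of all mural cells were at 972 and 258 CPM (Control) against 629.7 and 1055 CPM (EC-Foxc-DKO), and the immediate early genes at 13949 and 10404 CPM against 5892 and 25113 CPM. Their part in the differences was not tested, and fewer cells of a subtype and less RNA per cell cannot be told apart in these sums.

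Of the 6 members that passed the count filter in Myocytes/Pericytes, Klf2, Gucy1a1 and Rrad were lower in both EC-Foxc-DKO mice and none was higher in both. Of all 1045 genes tested, 177 were lower in both (16.9%) and 224 higher in both (21.4%), a background from which nothing is read because these contrasts helped to choose the genes. None of the 1045 genes passed an adjusted p of 0.05 in edgeR's test (0%), 67 had an unadjusted p under 0.05, and DESeq2 called none.

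**Figure D5:**
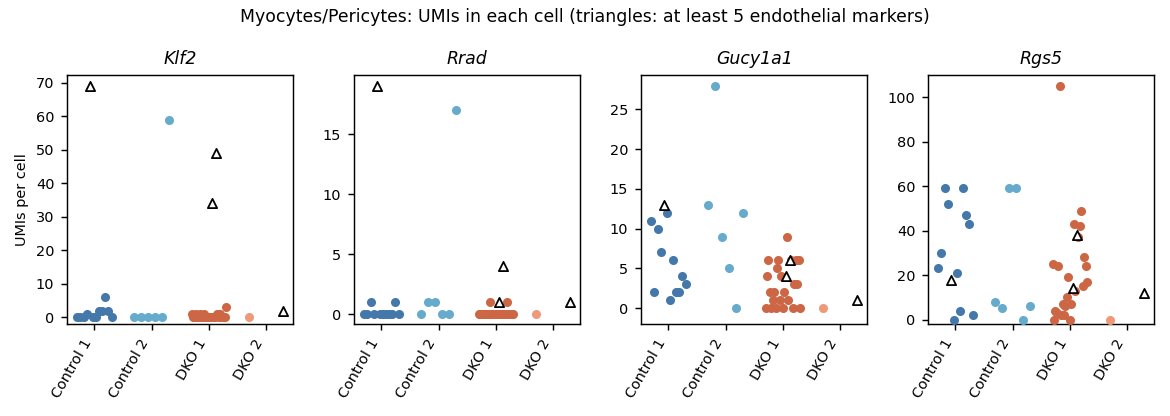
UMIs of member genes in each of the 45 Myocytes/Pericytes, by mouse (DKO, EC-Foxc-DKO), with triangles for cells that carry at least 5 endothelial markers. Klf2 and Rrad stand on 1 cell in each Control mouse (69 and 59 Klf2 UMIs), whereas Gucy1a1 and Rgs5 are spread over most cells.

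The choice of genes did not use the other cell types, and 7 of these had at least 10 cells in every mouse, of which Crypt cells and Fibroblasts were added after the data were seen. Neither Klf2 nor any other member passed the test there. In Follicular B cells Klf2 was at 584 and 851 CPM (Control) against 530.2 and 428 CPM (EC-Foxc-DKO), without overlap, and edgeR gave a log2 fold change of -0.44 ± 0.31 (adjusted p = 1). Rrad was at 28.6 and 0 CPM (Control) against 42 and 50.9 CPM (EC-Foxc-DKO), lower in both Control mice. No overlap in either direction was found for 29.6% of the 3381 genes tested in that type, and none of them was called (0%), 63 genes having an unadjusted p under 0.05 in edgeR and DESeq2 calling none.

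In Bottom enterocytes Klf4 had the largest log2 fold change of the members tested in these 7 types, at 86.2 and 39.7 CPM (Control) against 92.8 and 315 CPM (EC-Foxc-DKO), with a log2 fold change of 1.68 ± 0.58 and an adjusted p of 0.994 by edgeR. EC-Foxc-DKO replicate 2 stood far above the other 3 mice, and replicate 1 was near Control replicate 1. Among the 9621 genes tested, 32.4% did not overlap and none was called (0%), with 284 at an unadjusted p under 0.05 in edgeR and 5 called by DESeq2, no member among them. Edn1 in these cells was at 12.1 and 6.2 CPM (Control) against 6.72 and 28.5 CPM (EC-Foxc-DKO) and overlapped. In Plasma cells Klf2 was at 145 and 200.1 CPM (Control) against 46 and 253 CPM (EC-Foxc-DKO) (log2 fold change -1.07 ± 0.65, edgeR adjusted p = 0.571), where 18 of 2803 genes were called (0.642%). Of these 2803 genes, 1829 were higher in both EC-Foxc-DKO mice in CPM and 79 lower in both, so CPM and the TMM scale can differ in direction there. Klf6 was higher in both EC-Foxc-DKO mice in CPM, with a log2 fold change of -0.16 ± 0.48.

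In Macrophage 2, Klf2 was at 249 and 633 CPM (Control) against 292 and 176 CPM (EC-Foxc-DKO) and Klf6 at 604 and 1448 CPM (Control) against 464 and 668 CPM (EC-Foxc-DKO), both overlapping and both highest in Control replicate 2. EdgeR called none of 6865 genes there (0%), with 149 at an unadjusted p under 0.05, and DESeq2 called none. In CD8+ T cells only Klf6 passed the count filter, at 465 and 312 CPM (Control) against 284 and 371 CPM (EC-Foxc-DKO), and edgeR called none of 4768 genes (0%), with 99 at an unadjusted p under 0.05, whereas DESeq2 called 1, which was not Klf6. In Crypt cells Klf4 was at 74.9 and 15.6 CPM (Control) against 20.4 and 23.7 CPM (EC-Foxc-DKO) (log2 fold change -1.17 ± 0.54), with Control replicate 1 above the other 3 mice. Klf6 and Edn1 overlapped there too, and edgeR called none of 9279 genes (0%), with 229 at an unadjusted p under 0.05 and 4 called by DESeq2, no member among them. In Fibroblasts Klf2 was at 229 and 200.5 CPM (Control) against 215 and 61.3 CPM (EC-Foxc-DKO) and Klf6 at 409 and 391 CPM (Control) against 320.5 and 567 CPM (EC-Foxc-DKO), both overlapping, and edgeR called none of 1644 genes (0%), with 38 at an unadjusted p under 0.05, DESeq2 calling none. These p-values measure the spread between 2 mice per group, and for a single value the exact permutation test cannot go below 0.333.

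The wider pathways of these genes were examined with 8 lists. In BECs no gene of any list passed edgeR's test (adjusted p under 0.05). Of the other Klf family genes, 5 of 14 could be tested and 2 had a log2 fold change above 0 (median -0.19). Klf7 was the most abundant, at 255 and 361 CPM (Control) against 267 and 493 CPM (EC-Foxc-DKO), and Klf13 next, at 249 and 397 CPM (Control) against 214 and 195 CPM (EC-Foxc-DKO). Of the MEK5-ERK5-MEF2 and shear sensing genes 15 of 21 could be tested, 8 above 0 (median 0.03). Its leading genes Pecam1 and Cdh5, junctional parts of the shear sensor, overlapped between groups, Pecam1 at 1365 and 1761 CPM (Control) against 1644 and 1325 CPM (EC-Foxc-DKO). The list of shear-induced targets had 8 of 10 tested genes above 0 (median 0.21, against 0.0017 over all genes tested). It also holds genes of inflammation such as Vcam1, Sele, Icam1 and Ccl2, so the count is not read as a response to flow. Cav1 of caveolae was at 988 and 1569 CPM (Control) against 1056 and 1019.5 CPM (EC-Foxc-DKO). The scaffold gene Slc9a3r2 was at 444 and 655 CPM (Control) against 806 and 926 CPM (EC-Foxc-DKO), without overlap.

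Of the genes around nitric oxide and cGMP, 4 of 17 could be tested in BECs and 1 was above 0 (median -0.39). Ddah2, which degrades inhibitors of nitric oxide synthase, was at 168 and 174 CPM (Control) against 169 and 110.5 CPM (EC-Foxc-DKO), and Arg1 had 491 CPM in Control replicate 1 and none elsewhere. In that mouse myeloid markers also stood at 1956 CPM in BECs, against 4.46 to 170 CPM in the others. The endothelin and angiotensin list had 3 of 13 genes tested (2 above 0, median 0.00), among them the converting enzymes Ace, at 941 and 722 CPM (Control) against 892 and 731 CPM (EC-Foxc-DKO), and Ece1, at 759.6 and 611 CPM (Control) against 650.1 and 739 CPM (EC-Foxc-DKO), both overlapping. The coagulation list around thrombomodulin had 4 of 5 tested genes above 0 (median 0.07), led by Anxa2 and Plat, and of the RGS and RGK genes only Rgs3 could be tested, at 121 and 223 CPM (Control) against 132 and 127 CPM (EC-Foxc-DKO).

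In Myocytes/Pericytes no gene of the 8 lists passed edgeR's test either. The receptors of endothelin were low, Ednra at 284 and 337 CPM (Control) against 169 and 106 CPM (EC-Foxc-DKO) without overlap and Ednrb at 209 and 99.1 CPM (Control) against 108 and 106 CPM (EC-Foxc-DKO) with overlap. In the 2 mural cells of EC-Foxc-DKO replicate 2, 106 CPM is 1 UMI. Of the nitric oxide and cGMP list, 5 of 17 could be tested and 1 was above 0 (median -0.41), with the phosphodiesterase Pde3a at 1196 and 773 CPM (Control) against 635 and 1161 CPM (EC-Foxc-DKO). Mef2c, a muscle transcription factor of the shear list, was at 1615 and 991 CPM (Control) against 553 and 1055 CPM (EC-Foxc-DKO). Klf9 was at 957 and 852 CPM (Control) against 532 and 949.7 CPM (EC-Foxc-DKO), and Rgs4, which like Rgs5 ends G protein signals, at 583 and 595 CPM (Control) against 241 and 1055 CPM (EC-Foxc-DKO). All 3 overlapped. In LECs, EC-Foxc-DKO replicate 1 gave 23 UMIs of Fos and 55 of Jun, both of the immediate early list, against none of Fos and 2 and 3 of Jun in the 2 Control mice. The 1 cell with all 10 endothelial markers held 23 and 54 of these. In the other 7 cell types no gene of the 8 lists was called by edgeR.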

How the data were processed

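Distal jejuna of 4 mice were analysed, 2 per group, with groups and replicate numbers from the deposited labels. The authors sequenced droplet 3′ libraries and deposited UMI counts per gene and barcode, not normalized, in 1 matrix per mouse and 1 joined table. The submitters' processing notes name Cell Ranger 4.0.0, the methods another version, and the genome is mm10. The matrices were used. The barcode names of the joined table show no sample, so it was taken as pooled over the 4 mice and used for its gene IDs only. Clustering and the mitochondrial share were limited to its 18407 genes.

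Following the study's settings, cells with over 10% mitochondrial UMIs were removed, counts were log-normalized to 10000 UMIs, and 15 principal components and Leiden clustering at a resolution of 0.5 (scanpy 1.11.5) gave clusters that were named from the study's marker table, with at least 3 markers at 2 times the level of the other cells. The rule for naming parts of split clusters was set after the clusters were seen, so that names may differ from the study's. Doublets were kept.

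UMIs of each gene were added up over the cells of a type in each mouse and compared with edgeR 4.0.16 (R 4.3.3; filterByExpr, TMM, quasi-likelihood test), with Benjamini-Hochberg adjustment over all genes tested and a threshold of 0.05. The SE is the log2 fold change divided by the square root of F. DESeq2 1.42.0, no count filter, other scaling, a replicate block, a 20% mitochondrial limit, removal of likely doublets, of shared barcodes and of each mouse in turn, and clustering without the members were tried as alternatives, and Crypt cells and Fibroblasts were added to the cell types compared after the data were seen. The scripts were tested on simulated data.

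The members and all gene lists were chosen with earlier results of these data known. The text names all members, the 3 genes most like each, and from each list the genes called and the most abundant ones. Depth sets the precision, since BECs held 117700 to 430720 UMIs per mouse. Coordinates of genes follow GENCODE on GRCm38, the assembly that mm10 names. Replicate numbers came from the titles and pair no animals.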

Additional observations from a re-analysis of the deposited data

Results flagged for a closer look

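Klf2 had opposite orders of the groups in different cell types of the same mice. The contrasts in BECs and Myocytes/Pericytes helped to choose the genes. Groups that did not overlap within 1 cell type were common over all genes tested. How many genes had opposite orders in 2 types was not counted. In BECs 15.5% were higher in both EC-Foxc-DKO mice, and in Myocytes/Pericytes 16.9% were lower in both. In Follicular B cells 29.6% did not overlap in either direction. Klf2 was higher in both EC-Foxc-DKO mice in BECs and lower in both in Myocytes/Pericytes, and the log2 fold change in BECs minus that in Myocytes/Pericytes was 2.09. It was also lower in both EC-Foxc-DKO mice in Follicular B cells, from which BECs differed by 0.90. Rrad was higher in both EC-Foxc-DKO mice in Follicular B cells and lower in both in Myocytes/Pericytes, a difference of 4.10. None of these differences was tested, and the mural values of Klf2 and Rrad rest on 1 cell in each Control mouse.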

How the results depend on the processing

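No member passed edgeR's test in any of the 10 cell types as reported. In BECs and Myocytes/Pericytes the members were chosen partly on these contrasts, so the counts there are a description only. In BECs 2 members passed without the count filter (Rgs5 and Apold1) and 1 with the replicate block (Rgs5), and 0 to 2 with each mouse left out in turn, the 2 being Rgs5 and Apold1 without EC-Foxc-DKO replicate 1. In Myocytes/Pericytes 1 passed with the replicate block (Rrad), 2 with the highest doublet scores removed (Klf2 and Rrad, no cell of EC-Foxc-DKO replicate 2 being left), and 0 to 1 with each mouse left out (Rrad, when Control replicate 1 or EC-Foxc-DKO replicate 2 was left out). In Macrophage 2 and in Plasma cells 0 to 1 passed with a mouse left out (Klf2 in both, when Control replicate 1 or EC-Foxc-DKO replicate 2, respectively, was left out). In Crypt cells 0 to 1 passed (Klf4, without Control replicate 2). In Bottom enterocytes 1 passed without the filter and 1 with the crossed replicate block (Klf4 in both), a fit chosen after seeing the data. A mouse left alone in its group was assumed to vary like the others.

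The samples share only a replicate number. Same-numbered mice had correlations of their deviations of -0.32 to 0.01 over 9 cell types, -0.32 in Crypt cells, -0.23 in Macrophage 2 and -0.14 in Bottom enterocytes, and no paired analysis was possible in LECs because 3 mice had cells. The number of members highest in BECs, LECs or Myocytes/Pericytes was 7, and 6 to 8 over the alternatives.

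The log2 fold change of Thbd in Macrophage 2 changed sign with DESeq2 (0.024), the replicate block (0.032) and the crossed block (0.16), and ranged from -0.60 to 1.34 with a mouse left out. That of Klf6 in Plasma cells was 0.11 without the filter. With each mouse left out, Klf6 ranged from -0.11 to 1.34 in Follicular B cells, -0.48 to 0.037 in CD8+ T cells, -0.52 to 0.46 in Plasma cells and -0.20 to 0.39 in Bottom enterocytes, Klf4 from -0.79 to 0.60 and Rrad from -0.68 to 1.31 in Macrophage 2, Klf4 from -1.73 to 0.50 and Edn1 from -2.99 to 0.029 in Crypt cells, Klf2 from -1.89 to 0.010 and Klf6 from -0.32 to 0.39 in Fibroblasts, and Edn1 from -0.70 to 1.59 in Bottom enterocytes. The cause was not tested. Of the other member values outside the vessel types, 226 kept their direction and side of the threshold. Genes called over all alternatives numbered 0 to 57 in BECs, 0 to 15 in Myocytes/Pericytes, 0 to 147 in Bottom enterocytes, 0 to 72 in CD8+ T cells, 0 to 16 in Follicular B cells, 0 to 242 in Macrophage 2, 0 to 103 in Crypt cells, 0 to 50 in Fibroblasts, 0 to 18 in LECs and 6 to 261 in Plasma cells. The number of genes tested differed between these fits, and some left 1 mouse in a group, so the counts are not compared. Few mural cells and LECs limit every value in those types.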
